A study of Mus musculus with 10 samples.

Results

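Transcripts of 9 genes that oxidise pyruvate and acetyl-CoA in mitochondria were examined in mouse liver after inhibition of the microRNA miR-122. The genes were Pdha1 of the pyruvate dehydrogenase complex and Cs, Idh3a, Idh3g, Ogdh, Dlst, Suclg1, Fh1 and Mdh2 of the citrate cycle. They were taken by name from the array annotation, which gives them 11 probes that stand for a single gene each (2 for Cs, 2 for Dlst and 1 for each other gene), among 18012 genes with a tested single-gene probe. Cs was included as a reported target of miR-122, and the succinate dehydrogenase subunits were left out by the same choice. All 11 probes had a value on all 10 arrays. Livers came from 5 mice given an antisense oligonucleotide (ASO) to miR-122, of 2'-O-methoxyethyl phosphorothioate chemistry, and from 5 mice given saline. Both were injected intraperitoneally over 4 weeks with 2 doses in each week, the ASO at 50 mg/kg a dose. Tissue was taken 2 days after the last dose, and each liver was hybridised to its own one-channel array. The labels name male C57Bl/6 mice for the ASO group, name no strain or sex for the saline group and give no ages. No group received an oligonucleotide of another sequence, so the ASO's chemistry and the loss of miR-122 cannot be told apart.

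The pyruvate dehydrogenase complex turns pyruvate from glycolysis into acetyl-CoA, and the citrate cycle burns that acetyl group to carbon dioxide, passing electrons to the respiratory chain. In liver the same cycle also supplies citrate for fatty acid synthesis and takes up carbon from amino acids, and it feeds glucose synthesis. miR-122, a microRNA very abundant in hepatocytes, lowers the messenger RNAs it pairs with, and blocking it typically raises its direct targets.

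None of the 11 probes passed the threshold of the test over all probes. Intensities are on a log2 scale, and a difference is the ASO mean minus the saline mean, so -1 is a halving. At the brightest probe of each gene, 8 of 9 genes were lower in the ASO livers under the deposited scaling, and 7 of 9 under quantile or cyclic loess normalization, where the sign of Idh3a turned. The differences ran from -0.80 (Pdha1) to 0.63 (Idh3g), with a median of -0.18. Over the 36088 probes tested the median was -0.0029, and over the 9263 probes within the genes' range of mean level it was -0.12, with 63.3% of those probes lower. The genes' median was -0.04 under quantile normalization and -0.36 without saline replicate 3. In limma's test, 0 of 11 probes had an adjusted p under 0.05, against 0.0637% of all probes. An unadjusted p under 0.05 was met by 3 of 11 probes, all lower (Pdha1, Fh1 and 1 of the Dlst probes), against 6.66% of all probes lower at that level and 12.2% of those within the genes' range of mean level. Of all probes, 4.58% were higher at that level. Groups did not overlap for 1 probe, that of Pdha1, which was lower, against 1.43% of all probes and 2.77% of those within that range. In whole liver, fewer cells of a type and less RNA per cell cannot be told apart.

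**Figure D1:**
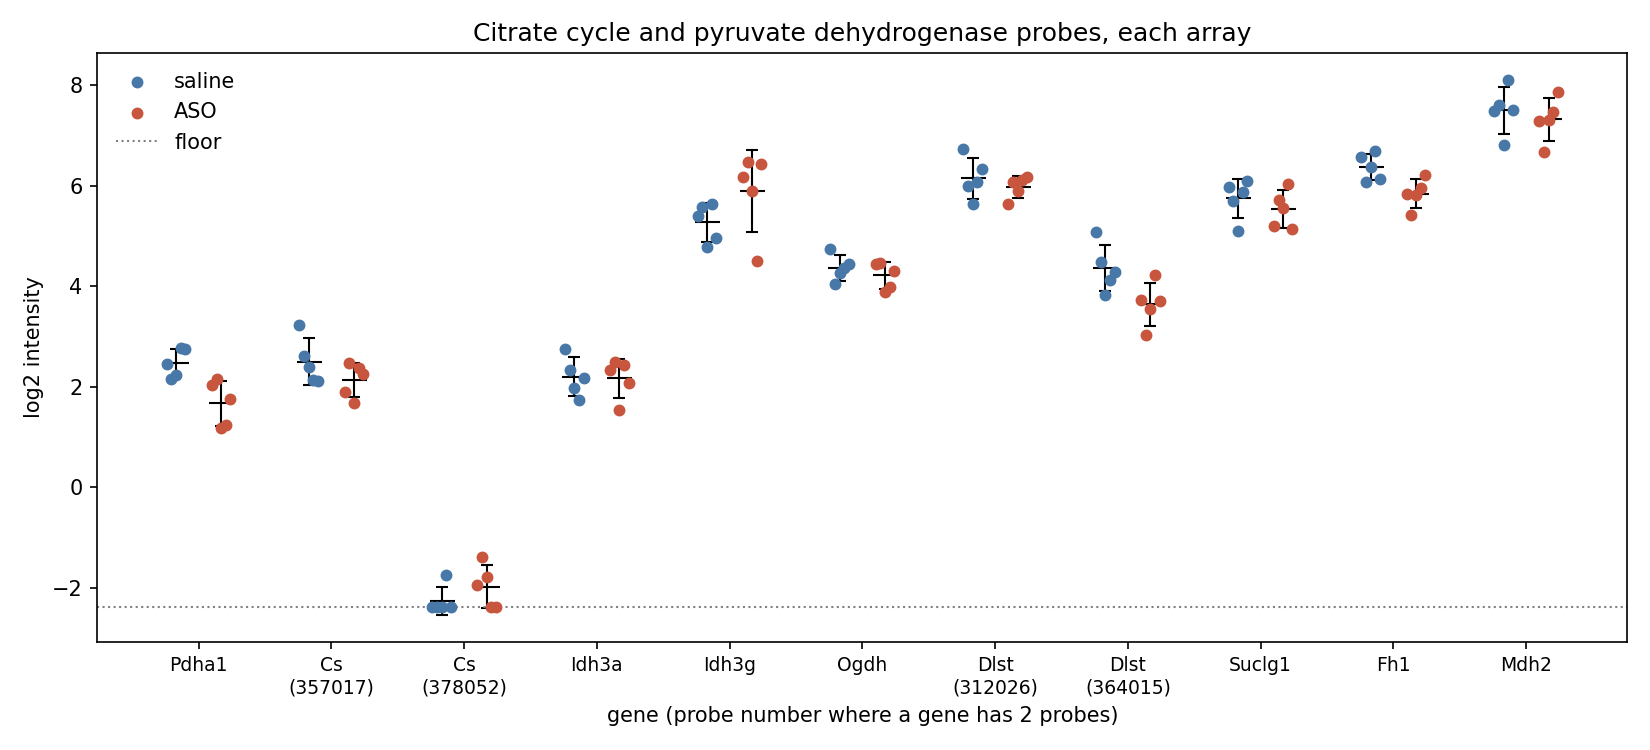
Log2 intensity (vertical axis) of the 11 probes in the 5 saline (blue) and 5 ASO livers (red), with the mean and SD of each group as bars and the floor for dim values as a dotted line. The groups are apart only for Pdha1, 1 ASO liver stands low for Idh3g, and the second Cs probe lies at or near the floor.

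Pdha1 encodes the catalytic alpha subunit of pyruvate dehydrogenase, whose phosphorylation switches the complex off, and it had the largest negative difference of the 9 genes. Probe 183069 read 2.45, 2.15, 2.24, 2.78 and 2.75 in saline replicates 1 to 5 and 2.04, 2.15, 1.19, 1.23 and 1.76 in ASO replicates 1 to 5. Every ASO liver was below every saline liver, although ASO replicate 2 and saline replicate 2 nearly touched, and ASO replicates 3 and 4 were the lowest. The mean was 2.47 ± 0.29 in saline and 1.68 ± 0.45 in ASO livers (SD, n = 5 in each), a difference of -0.80 ± 0.24 (SE), or 1.74-fold lower. Limma's adjusted p was 0.262 (unadjusted p = 0.00567), and an exact two-sided permutation test over the 252 splits of the livers gave p = 0.00794, the smallest it can give. Without 1 array at a time the difference stayed between -0.92 and -0.68, and it was -0.66 under quantile normalization. Its upstream promoter is shown because this gene had the smallest p of the 9, and capitals in this and the next promoters mark matches to 6 short motifs named further on. The 250 bases before the start, from RefSeq on GRCm38.p6 at chrX:160138431-160138680 on the minus strand, hold none of them.
Pdha1: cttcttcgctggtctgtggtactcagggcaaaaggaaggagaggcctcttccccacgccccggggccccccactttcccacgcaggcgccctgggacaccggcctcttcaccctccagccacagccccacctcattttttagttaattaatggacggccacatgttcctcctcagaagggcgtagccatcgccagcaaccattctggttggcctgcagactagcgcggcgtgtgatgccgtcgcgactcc

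Cs encodes citrate synthase, which joins acetyl-CoA and oxaloacetate in the first step of the cycle, and it was not higher after the ASO at its measurable probe. Probe 357017 read 3.24, 2.62, 2.40, 2.14 and 2.12 in saline replicates 1 to 5 and 1.89, 2.47, 1.67, 2.37 and 2.26 in ASO replicates 1 to 5. The groups overlapped broadly, saline replicate 1 was the highest, and 4 of 5 ASO livers lay below the saline median. The difference was -0.37 ± 0.25 (SE, limma adjusted p = 0.597), with a 95% interval of -0.92 to 0.17. It was -0.24 under quantile normalization, -0.05 for the mean of both Cs probes and -0.19 without saline replicate 1, an array whose median over probes above the median level was also the highest of the 10 (2.54 against 2.16 to 2.43). The second probe, 378052, was at or under the floor of 0.192 intensity units on 4 saline and 2 ASO arrays and read -1.75 in saline replicate 4 and -1.93, -1.38 and -1.78 in ASO replicates 1 to 3 on the log2 scale. Its difference of 0.28 ± 0.23 (limma adjusted p = 0.670) rests on these few values, was 0.13 without ASO replicate 2, and is no measure of size. The Cs promoter is printed because Cs is the reported target, 250 bases on the plus strand of GRCm38.p6 at chr10:128337477-128337726 from RefSeq, with 2 CCAAT boxes and 2 GC boxes in capitals.
Cs: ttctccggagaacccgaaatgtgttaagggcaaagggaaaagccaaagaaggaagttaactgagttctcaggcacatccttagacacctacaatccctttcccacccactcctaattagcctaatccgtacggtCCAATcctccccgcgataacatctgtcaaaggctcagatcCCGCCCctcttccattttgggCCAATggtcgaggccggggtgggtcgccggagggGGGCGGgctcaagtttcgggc

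Idh3a and Idh3g encode the catalytic alpha and regulatory gamma subunits of the NAD-dependent isocitrate dehydrogenase, and Idh3g was the 1 gene with a higher ASO mean under the deposited scaling. For Idh3a the saline livers read 2.76, 2.34, 1.98, 1.74 and 2.18 in replicate order and the ASO livers 2.33, 2.49, 1.54, 2.44 and 2.07. The groups lay over each other, with a difference of -0.03 ± 0.24 and a 95% interval of -0.55 to 0.50 (limma adjusted p = 0.980), and it ranged from -0.14 to 0.13 with 1 array left out. For Idh3g the saline livers read 5.40, 5.58, 4.78, 5.63 and 4.95 and the ASO livers 6.18, 6.48, 5.90, 4.50 and 6.42. In 4 of 5 ASO livers Idh3g was above every saline liver, and in ASO replicate 4 it was below every saline liver. The mean was 5.27 ± 0.38 in saline and 5.89 ± 0.81 in ASO livers (SD, n = 5 in each), a difference of 0.63 ± 0.36 (SE, limma adjusted p = 0.540, 95% interval -0.16 to 1.41). Over the omissions of 1 array it ranged from 0.48 without ASO replicate 2 (limma unadjusted p = 0.228) to 0.98 without ASO replicate 4. The latter had a limma adjusted p of 0.243 (unadjusted p = 0.00162). The difference of Idh3g was 0.80 under quantile normalization (limma unadjusted p = 0.0379) and 0.57 with array weights (limma unadjusted p = 0.114). The ratio of Idh3g to Idh3a on each array differed by 0.65 between the groups on the log2 scale, which an exact two-sided permutation test did not call (p = 0.214, adjusted p = 0.429 over 4 such ratios chosen after the values were seen). Idh3g's promoter is shown as that of the gene with the opposite sign, 250 bases on the minus strand of GRCm38.p6 at chrX:73786898-73787147 from RefSeq, with an ETS site in capitals.
Idh3g: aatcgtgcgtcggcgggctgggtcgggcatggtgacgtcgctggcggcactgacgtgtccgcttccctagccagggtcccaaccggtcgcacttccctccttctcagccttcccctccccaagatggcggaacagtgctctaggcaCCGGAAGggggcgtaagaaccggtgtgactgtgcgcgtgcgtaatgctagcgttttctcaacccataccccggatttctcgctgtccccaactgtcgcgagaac

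Ogdh and Dlst encode the first and second enzymes of the 2-oxoglutarate dehydrogenase complex, a close relative of pyruvate dehydrogenase. Ogdh read 4.74, 4.05, 4.26, 4.36 and 4.43 in saline replicates 1 to 5 and 4.45, 4.46, 3.88, 3.98 and 4.30 in ASO replicates 1 to 5. The ranges overlapped, and the difference was -0.15 ± 0.19 (SE, limma adjusted p = 0.795, 95% interval -0.57 to 0.26). Over the omissions of 1 array it ranged from -0.24 (saline replicate 2 left out) to -0.06 (saline replicate 1), and it was -0.02 under quantile normalization. Dlst, which carries the lipoyl arm, was measured by 2 probes that gave unlike sizes. Probe 312026 read 6.73, 5.99, 5.64, 6.07 and 6.33 in the saline livers and 5.64, 6.08, 5.89, 6.11 and 6.17 in the ASO livers, a difference of -0.17 ± 0.21 (limma adjusted p = 0.800). With 1 array left out this ranged from -0.30 (saline replicate 3) to -0.03 (saline replicate 1), and it was -0.0082 under quantile normalization. Probe 364015 read 5.07, 4.49, 3.83, 4.13 and 4.28 in the saline livers and 3.72, 3.02, 3.54, 4.22 and 3.70 in the ASO livers. All 5 ASO livers lay below the saline median at this probe, and ASO replicate 4 kept the groups overlapping. Its difference was -0.72 ± 0.27 (SE, limma adjusted p = 0.357, unadjusted p = 0.0203), and an exact two-sided permutation test gave p = 0.0238. Without saline replicate 1 it was -0.54 (limma unadjusted p = 0.0523). The difference between the 2 Dlst probes on each array shifted by 0.55 between the groups (exact two-sided permutation p = 0.0556, adjusted p = 0.222 over the 4 ratios), so the probes were not shown to differ. The ratio of Ogdh to Dlst at the brighter probe shifted by 0.02 (exact permutation p = 0.913, adjusted p = 0.913).

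Suclg1, the alpha subunit of succinyl-CoA ligase, read 5.97, 5.70, 5.09, 5.88 and 6.09 in saline replicates 1 to 5 and 5.20, 5.71, 5.55, 6.04 and 5.13 in ASO replicates 1 to 5. The groups overlapped over nearly their whole range, with a difference of -0.22 ± 0.24 (SE, limma adjusted p = 0.769, 95% interval -0.74 to 0.31). Leaving out each array in turn gave values from -0.38 (saline replicate 3) to -0.12 (ASO replicate 5), and quantile normalization gave -0.04.

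Fh1, the fumarate hydratase, had the next most negative difference after Pdha1 at the brightest probes. It read 6.57, 6.08, 6.36, 6.68 and 6.13 in saline replicates 1 to 5 and 5.83, 5.41, 5.81, 5.94 and 6.22 in ASO replicates 1 to 5. Of the ASO livers, 4 lay below every saline liver and replicate 5 lay within the saline range. The mean was 6.37 ± 0.26 in saline and 5.84 ± 0.29 in ASO livers (SD, n = 5 in each), a difference of -0.52 ± 0.20 (SE, limma adjusted p = 0.358, unadjusted p = 0.0204), or 1.44-fold lower. An exact two-sided permutation test over the livers gave p = 0.0238. This test was run on every probe of these genes, and its p-values were not adjusted over the probes. Besides Pdha1, Fh1 and Dlst probe 364015, they ran from 0.175 (Idh3g) to 0.905 (Idh3a). Under quantile normalization the difference of Fh1 was -0.37 (limma unadjusted p = 0.0752). The promoter of Fh1 is shown beside that of Pdha1 as the other gene whose brightest probe had an unadjusted p under 0.05, 250 bases on the minus strand of GRCm38.p6 at chr1:175625636-175625885 from RefSeq, with 2 CCAAT boxes (as ATTGG on this strand) and a GC box in capitals.
Fh1: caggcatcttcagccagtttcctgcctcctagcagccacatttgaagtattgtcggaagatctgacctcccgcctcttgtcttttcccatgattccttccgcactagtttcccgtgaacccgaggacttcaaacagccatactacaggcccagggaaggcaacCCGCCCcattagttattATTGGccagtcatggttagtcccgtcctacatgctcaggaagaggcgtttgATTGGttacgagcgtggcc

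Mdh2, the mitochondrial malate dehydrogenase that closes the cycle, read 7.49, 7.61, 6.80, 8.11 and 7.50 in saline replicates 1 to 5 and 7.29, 6.68, 7.30, 7.46 and 7.86 in ASO replicates 1 to 5. Both groups spread over more than 1 log2 unit, and the difference was -0.18 ± 0.27 (SE, limma adjusted p = 0.834, 95% interval -0.77 to 0.40). Its range over the omissions of 1 array was -0.36 (saline replicate 3) to -0.02 (ASO replicate 2). Quantile normalization gave -0.15, and centring arrays on their brighter probes gave -0.05.

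**Figure D2:**
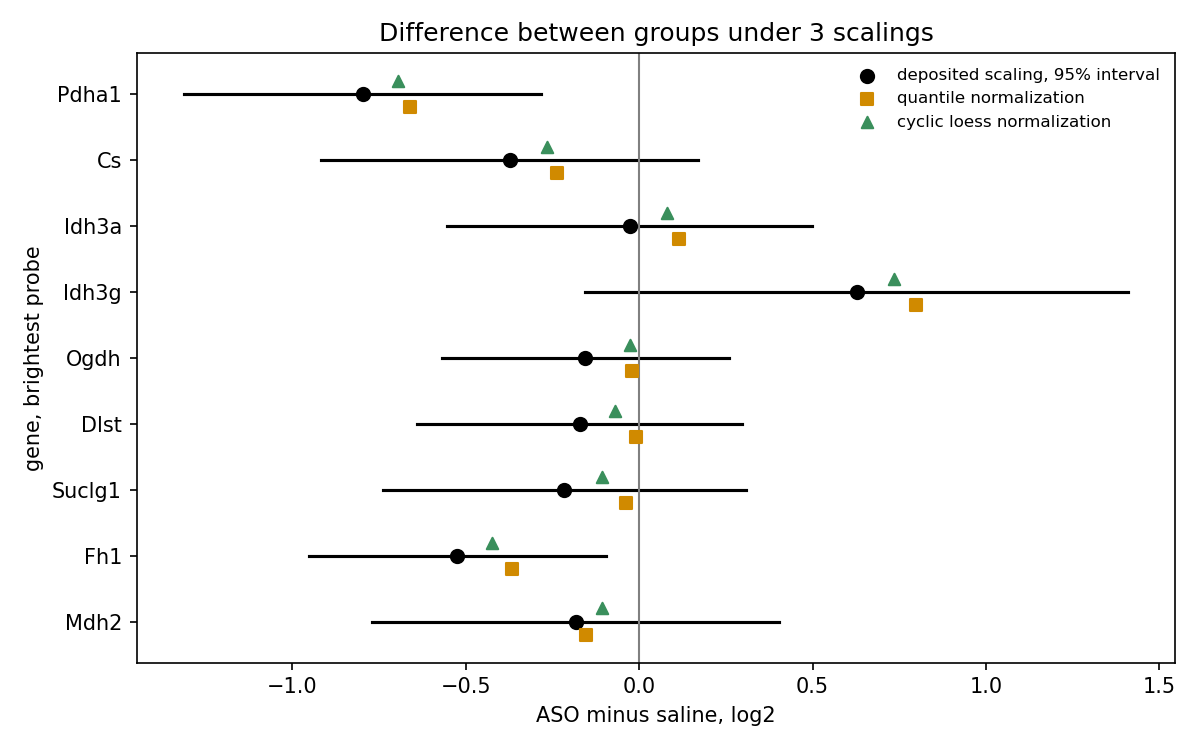
ASO minus saline difference in log2 intensity (horizontal axis) at the brightest probe of each gene, with its 95% interval under the deposited scaling (black) and the values after quantile (orange) and cyclic loess normalization (green). The intervals of Pdha1 and Fh1 lie below 0, both other scalings gave higher values for all 9 genes, and Idh3a crosses 0.

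Some arrays were high or low for several of the genes at once. Saline replicate 1 was the highest saline array for 4 of the 9 genes (Cs, Idh3a, Ogdh and Dlst), saline replicate 4 for 4 others (Pdha1, Idh3g, Fh1 and Mdh2), and saline replicate 3 was below the saline mean for all 9. In the ASO group, replicate 3 was the lowest for 4 genes (Pdha1, Cs, Idh3a and Ogdh) and replicate 2 the highest for 5 (Pdha1, Cs, Idh3a, Idh3g and Ogdh), while replicate 2 was the lowest for Fh1 and Mdh2. The brightest values of saline replicate 1 ended at 9.08 against 10.23 to 11.19 on the other arrays, above the highest value of any of these genes (8.11). By the rule for likeness, the genes whose profile over the 10 arrays was closest to the mean of the 9 were Dpy19l1 (Pearson r = 0.95), Dcaf10 (r = 0.94) and Pkp4 (r = 0.93), the highest of 12071 candidate probes, and these profiles share the same 10 arrays and their scaling.

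**Figure D3:**
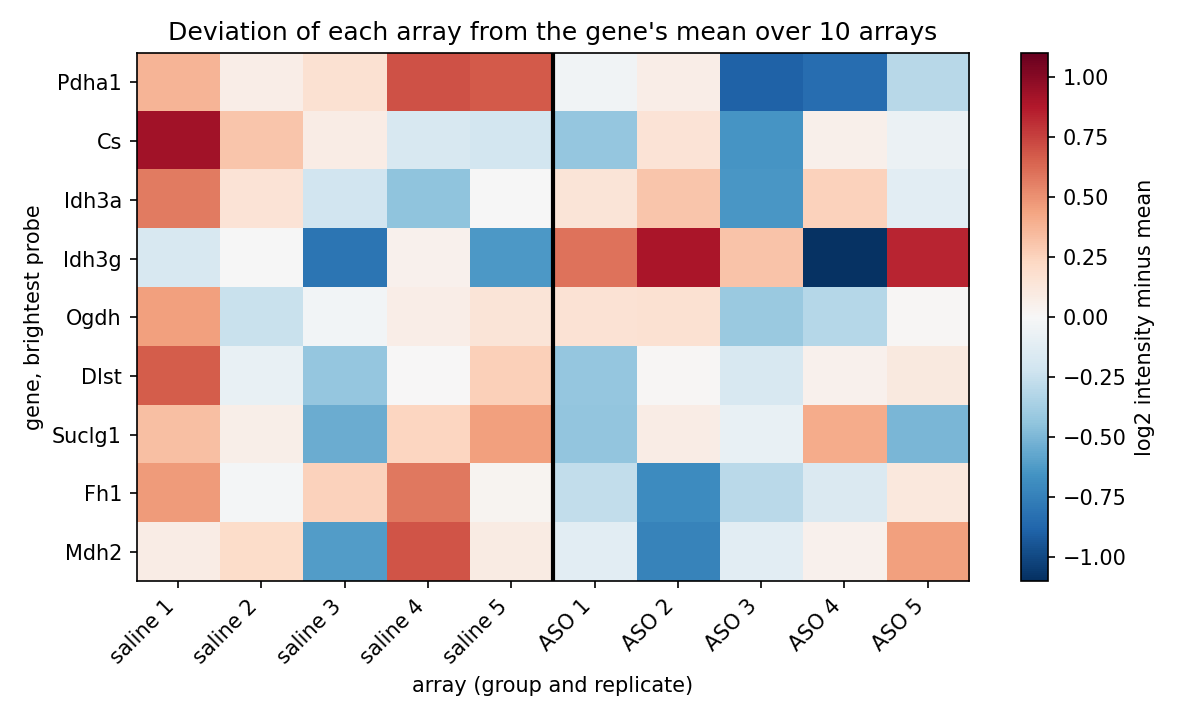
Log2 intensity minus the gene's mean over all 10 arrays (colour) for each of the 9 genes (rows, brightest probe) and each array (columns, saline left and ASO right of the black line). Pdha1 and Fh1 are mostly above their mean in saline and below it in ASO livers, Idh3g is high in 4 ASO livers and low in replicate 4, and the first saline array is high for most genes.

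The printed promoters and those of the other genes were searched on both strands for a CCAAT box (CCAAT), a GC box (GGGCGG), an ETS site (CCGGAAG, the site of factors such as Gabpa), a cAMP response element (TGACGTCA), an NRF1 core (GCATGCGC) and a core element of estrogen-related receptors (AAGGTCA). None of these motifs contains another. RefSeq promoters on GRCm38.p6 were matched for 8 of the 9 genes, all but Idh3a, and Ogdh had 6 windows, some of which overlap. A gene was counted when any of its windows matched, so Ogdh had more chances than a gene with 1 window. A GC box was found in 5 of the 8 genes (Cs, Ogdh, Dlst, Fh1 and Mdh2) against 35.4% of the 27025 genes with windows, and a CCAAT box in 3 (Cs, Ogdh and Fh1) against 37.5%. The cAMP response element was found in 2 (Ogdh and Mdh2) against 1.77%, the ETS site in 1 (Idh3g) against 7.83%, and the NRF1 core in 1 (Ogdh) against 2.56%. The receptor element was found in none of the 8, against 4.70% of genes. These are matches of letters within 250 bases and were not set against the differences.

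No gene of the neighbouring lists passed limma's adjusted threshold. Of the rest of the cycle, 3 of 4 measured genes were lower (median -0.21). Of these, 1 had an unadjusted p under 0.05 in limma's test. Of all probes, 6.66% were lower at that level, and of those within the 9 genes' range of mean level 12.2%. Dld, the dihydrolipoyl dehydrogenase that the pyruvate and 2-oxoglutarate complexes share, had a difference of -0.83 ± 0.30 (SE, limma adjusted p = 0.341). Idh3b, the third isocitrate dehydrogenase subunit, had -0.25 ± 0.17, and Suclg2, a succinyl-CoA ligase subunit, had 0.34 ± 0.21 at its brightest probe and -0.08 and 0.75 at the others. The 4 succinate dehydrogenase subunits were all lower under the 4 scalings run, with a median of -0.21 and 0 at an unadjusted p under 0.05 in limma's test. Among them were Sdhb (-0.24 ± 0.16), Sdhd (-0.45 ± 0.37) and Sdhc (-0.18 ± 0.26).

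Within the pyruvate dehydrogenase complex and its control, 6 of 7 measured genes were lower under the deposited scaling (median -0.35). The count was 5 of 7 under quantile normalization (-0.20) and 4 of 7 with arrays centred on their brighter probes. Under the deposited scaling 1 gene was lower at an unadjusted p under 0.05 in limma's test, against 6.66% of all probes. Pdk4, a kinase that inactivates Pdha1's product, had a difference of -1.03 ± 0.40 (SE, limma adjusted p = 0.372), Dlat, the acetyltransferase core, -0.60 ± 0.33, and Pdpr, a regulator of the phosphatase, 0.56 ± 0.33. Pdk4 and Pdpr were dim, at means of -0.07 and -0.81, below the median level of all probes (0.03). Pdhb, the beta subunit, outside the rule for named genes, was added after its value was seen as the partner of Pdha1. It had -0.36 ± 0.30, and the ratio of Pdha1 to Pdhb shifted by -0.44 between the groups (exact two-sided permutation p = 0.365, adjusted p = 0.487 over the 4 ratios). For the lipoyl cofactor that Dlst and Dlat carry, the synthase Lias had -0.28 ± 0.21 and the transferase Lipt2 -0.31 ± 0.32, neither at an unadjusted p under 0.05.

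Genes that bring carbon into the cycle or take it out had differences from -1.94 to 0.59. Of 18 measured, 11 were lower and 7 higher under the deposited scaling (9 and 9 with arrays centred on their brighter probes), with a median of -0.22. At an unadjusted p under 0.05, 6 of the 18 were lower and 1 higher, against 6.66% and 4.58% of all probes. Slc25a12, outside the rule for named genes, counted as higher at its brighter probe (0.08 ± 0.27, SE). At its other probe, of nearly the same mean level (0.65 against 0.66), it had -0.93 ± 0.26 (limma adjusted p = 0.250, unadjusted p = 0.00459). Acly, which splits exported citrate for fatty acid synthesis, had -1.94 ± 0.42 (SE, limma adjusted p = 0.151) and Got1, the cytosolic aspartate aminotransferase, -1.59 ± 0.37 (limma adjusted p = 0.180). Both had groups that did not overlap, with the ASO livers lower, against 1.43% of all probes. Pck2, the mitochondrial phosphoenolpyruvate carboxykinase, was dim and had 0.59 ± 0.14 (limma adjusted p = 0.194), with every ASO liver above every saline liver. Of the 36088 probes tested, 339 had groups that did not overlap with the ASO livers higher.

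Of mitochondrial genes outside the cycle, all 13 measured were lower under the deposited scaling (median -0.27) and 10 of 13 under quantile normalization (-0.12). Under the deposited scaling, 3 had an unadjusted p under 0.05 in limma's test. Of all probes, 6.66% were lower at that level, and of those above the median level 10.4%. Polg, the mitochondrial DNA polymerase, had -0.78 ± 0.18 (SE, limma adjusted p = 0.180), Phb, prohibitin, -0.71 ± 0.23 at its brighter probe and -0.08 ± 0.34 at the other, and Tomm40, the import channel, -0.68 ± 0.23. Of 7 regulators of mitochondrial genes, 2 were lower and 0 higher at an unadjusted p under 0.05 in limma's test. Of all probes, 6.66% were lower and 4.58% higher at that level. Gabpa, a transcription factor of the ETS family, had -1.17 ± 0.28 (limma adjusted p = 0.190). Sirt3, a mitochondrial deacetylase, had -0.90 ± 0.31, and Ppara, a nuclear receptor for fatty acids, 0.39 ± 0.24. Groups did not overlap for Gabpa and Polg, both lower, against 1.43% of all probes. The median of the 7 regulators was -0.07 under the deposited scaling, -0.12 under quantile and -0.13 under cyclic loess normalization, each with 5 lower. It was 0.07 with 3 lower when arrays were centred on their brighter probes, which moved the median of all probes to 0.13.

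Whether Cs differed from other reported miR-122 targets was not tested, and both are given side by side. Of 12 such targets measured, 10 were higher and 2 lower (median 0.47), 6 of the 12 had an unadjusted p under 0.05, all 6 higher, against 4.58% of all probes, and 0 passed the adjusted threshold of limma. Slc35a4 had 1.19 ± 0.22 (SE, limma adjusted p = 0.110), Bckdk 1.22 ± 0.25 at its brighter probe and -0.12 ± 0.27 at the other, and Ndrg3 0.92 ± 0.22. Groups did not overlap for 3 of the 12 targets, all higher, against 339 of the 36088 probes tested. Such targets may have been reported from these same animals, so their direction is no independent evidence.

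**Figure D4:**
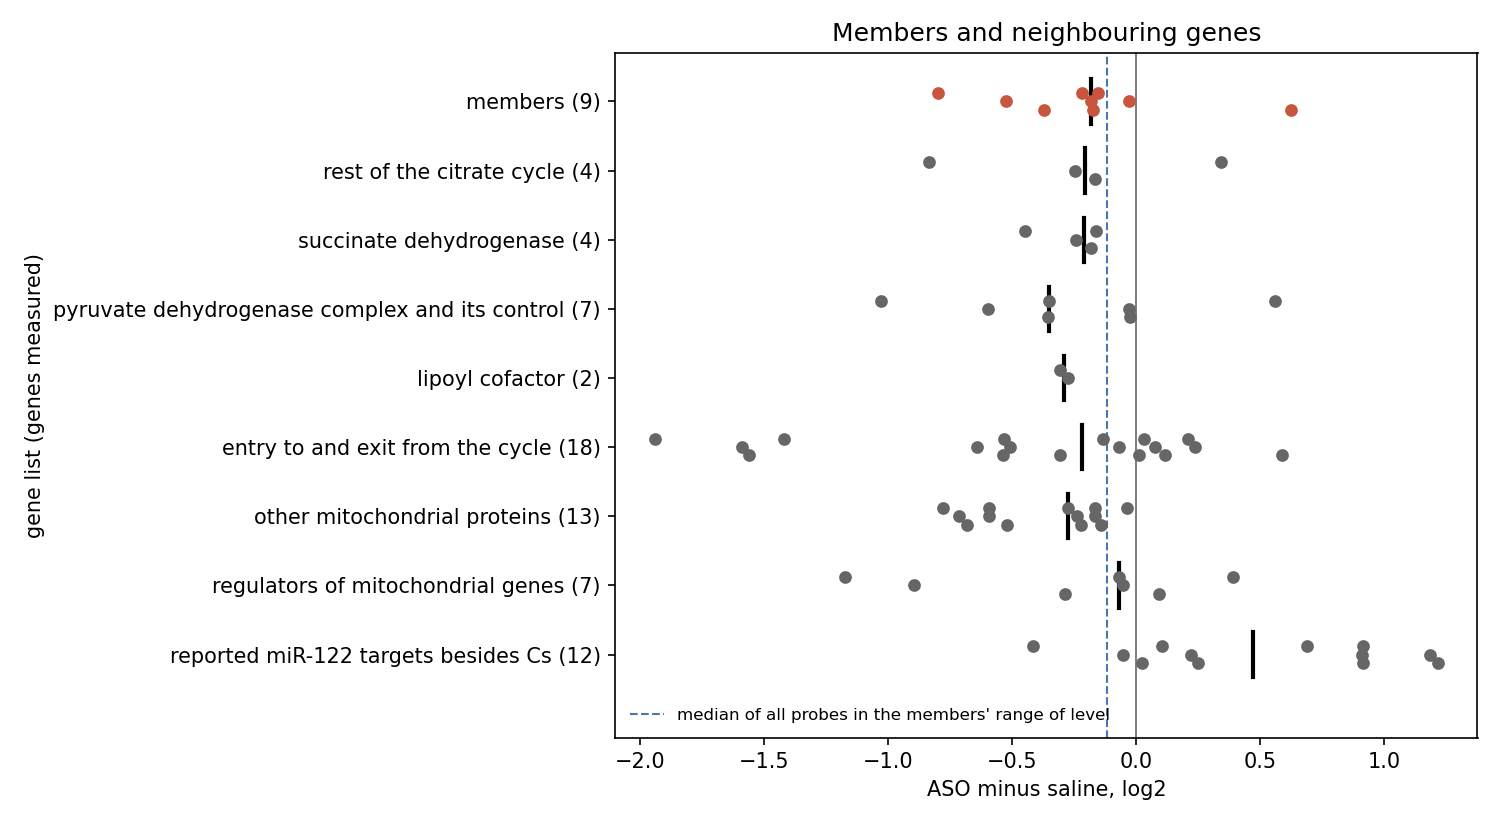
ASO minus saline difference in log2 intensity (horizontal axis) at the brightest probe of each measured gene. The 9 genes are red, the neighbouring lists grey, and a black bar is the median of each list. The dashed line is the median of all probes within the 9 genes' range of mean level (-0.12). Some listed genes lie below that range. The mitochondrial lists have medians below 0, entry and exit genes run from -1.94 to 0.59, and reported miR-122 targets lie mostly above 0.

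The livers carried the markers of their tissue. Of the hepatocyte markers, 5 of 6 were measured. Their summed intensity was 1905 to 4474 in saline and 3947 to 5444 in ASO livers, with saline replicate 1 the lowest. The brightest, Alb, Ttr and Apoa1 (means of 10.12, 10.11 and 10.05), had differences of 0.57, 0.41 and 0.50. Tat had 0.12 and Arg1 -0.32, and none passed limma's adjusted threshold. The values of saline replicate 1 ended at 9.08, below the means of Alb, Ttr and Apoa1. Kupffer cell markers summed to 74.5 to 196 in saline and 39.6 to 180 in ASO livers (5 of 5 measured), with endothelial (4 of 4) at 45.6 to 82.5 and 29.0 to 104 and stellate markers (5 of 5) at 86.8 to 128 and 79.9 to 145. Bile duct markers (4 of 4) summed to 6.05 to 7.65 and 5.31 to 7.25, lymphocyte markers (4 of 4) to 6.39 to 10.9 and 4.68 to 7.27, and pancreas markers (4 of 4) to 1.81 to 2.68 and 1.67 to 2.56. Of the red blood cell markers only Alas2 was measured, at 48.3 to 102 in saline and 29.8 to 84.6 in ASO livers. Muscle (3 of 3) and adipose markers (2 of 3) were highest in saline replicate 5, at 9.12 and 5.33 against at most 2.42 and 1.13 on the other arrays, and the genes' median difference without that array was -0.14. The part of these shifts in the differences was not otherwise tested.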

How the data were processed

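The deposited series table holds linear array intensity, which the authors had already brought to a common median (1.03 to 1.05 per array). Not given in the sources used here: software, background subtraction and scaling. Per the labels, biotin-labelled total liver RNA was hybridised to CodeLink arrays. Of 36227 probes, 36088 with at least 3 values per group were tested. A floor at the 10th percentile of positive values (0.192) was applied before taking log2. Genes were named from probes with 1 symbol (21615 probes, 21487 matched by Entrez ID to RefSeq's gene table). Differences were fitted on all tested probes with limma 3.58.1 (lmFit, eBayes) in R 4.3.3, two-sided, threshold 0.05 after Benjamini-Hochberg adjustment across the tested probes, and checked on simulated data. A gene stands by its brightest probe. Promoters (250 bases upstream) and gene names are RefSeq's. All 9 genes are named, with up to 3 genes of the smallest p per list and, for the genes most alike, the 3 highest correlations. The members and lists were chosen with earlier results of these data known. The labels name individual livers of separate mice, give no batch, and their number limits the precision. Alternatives were quantile and cyclic loess normalization, no floor, a pseudocount of 0.5, a filter on dim probes, trended and robust variances, array weights, the mean of a gene's probes, other call rules and leaving out each array. Centring arrays on their brighter probes was added after seeing the data.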

Additional observations from a re-analysis of the deposited data

Results flagged for a closer look

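In saline replicate 4 the second Cs probe, 378052, read -1.75 on the log2 scale, while the other 4 saline arrays were set to the floor of -2.38. It was singled out among 22 groups of 5 livers by its gap to the other values, but with 4 tied values the remaining one always has a gap equal to the whole range, so the floor fixed this outcome. On the intensities without the floor, 0.297 against 0.0540 to 0.136, the gap was 0.664 of the range, under the critical value of 0.71. The value therefore does not stand apart by this test.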

How the results depend on the processing

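The count of probes past the adjusted threshold was 0 of 11 under every normalization, floor, variance and array-weight setting run, 0 of 10 among probes above the median level (which leaves out the second Cs probe), and 0 of 11 under each omission of 1 array, and when a fold of 1.5 was also required. It was 3 at an unadjusted p under 0.05 and 1 by groups that do not overlap, all lower. Under the deposited scaling, 6.66% of all probes were lower and 4.58% higher at that unadjusted p in limma's test. Groups did not overlap, with the ASO livers lower, for 1.43%. Within the 9 genes' range of mean level, 12.2% were lower at that p and 2.77% lower without overlap. The lowest adjusted p of any probe of the 9 genes was 0.161, with only probes above the median level. Idh3a changed sign, to 0.11 under quantile normalization, 0.079 under cyclic loess and 0.11 with arrays centred on their brighter probes, and ranged from -0.14 to 0.13 over the omissions of 1 array. The other 8 genes kept their direction at the brightest probe under all settings. Their median with Idh3a ranged from -0.36 to -0.14 over the omissions of 1 array. At an unadjusted p under 0.05, 2 genes were lower and 0 higher under the deposited scaling (Pdha1 and Fh1), and 1 lower (Pdha1) and 1 higher (Idh3g) under quantile or cyclic loess normalization. Centring on brighter probes moved the median of all probes to 0.13. Over all probes, 23 passed the adjusted threshold, 7 with no floor, 39 under cyclic loess, 43 with the pseudocount, 73 among probes above the median level, 42 with trended and robust variances, 36 with centred arrays and 0 to 16 without 1 array. No paired analysis was possible because the labels give the livers no shared replicate numbers. Low signal limits the second Cs probe.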
